A study of Homo sapiens with 8 samples.

Results

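The comparison set MDA-MB231 against SUM159, 2 established human breast cancer cell lines, in 4 of the 8 bead arrays of the study. MDA-MB231 was measured on 1 array without a transgene. SUM159 was measured on 3 arrays, 1 without a transgene, 1 with stably transfected LacZ, a beta-galactosidase gene of bacteria used as the control insert, and 1 with stably transfected IRX5, which encodes a homeobox factor of the Iroquois family. The labels class MDA-MB231 and untransfected SUM159 as basal-like and do not say whether the transfected cultures were clones or pools. The other 4 arrays held SUM1315, a further basal-like cancer line, and the mammary epithelial line HMLE with LacZ, Gcnt2 or Foxq1, and are used here only to place the genes that differed. Total RNA of each culture was amplified, labelled with biotin and hybridised, and comparing the basal-like lines with each other is one of the aims that the design text gives.

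A gene was taken to differ where MDA-MB231 lay at least 2-fold above the highest or at least 2-fold below the lowest of the 3 SUM159 arrays. All values are the deposited probe intensities, which are on a linear scale and already normalized, and each gene is represented by its brightest named probe. Intensities at or below 140 could not be told from background, and a gene was compared where at least 1 of the 4 arrays lay above that limit. A fold is the ratio to the nearest SUM159 array, and "at least" marks a fold in which the dim side was raised to 140. MDA-MB231 has 1 array, so no p-value is given, and what belongs to the line and what belongs to that array cannot be told apart. The range over the 3 SUM159 arrays, which differ in their constructs, is the measure of spread. SUM159 values are given in the order untransfected, LacZ and the array labelled IRX5 throughout.

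MDA-MB231 and SUM159 both lack the estrogen receptor, the progesterone receptor and amplified ERBB2, and both are known for a mesenchymal shape and for invasive growth in culture and in mice. Such cells have left most of the junctional programme of the mammary epithelium, and instead express vimentin, matrix components and the proteases that cut them. Lines of the same class can still differ in the lineage factors, adhesion molecules and secreted signals that they keep.

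The shared features were measured first. CDH1 (E-cadherin, the adherens junction protein of epithelia) read 106 in MDA-MB231 and 104, 96.5 and 105 in SUM159, all at or below the limit, against 8097 in HMLE LacZ. ESR1 and PGR, the estrogen and progesterone receptor genes, were at or below the limit in all 4 arrays. VIM, the vimentin gene, read 24964 in MDA-MB231 and 27249, 25571 and 26353 in SUM159, a difference of 1.02-fold to the nearest array. The epithelial cell adhesion molecule EPCAM read 214 against 199, 176 and 183, and the receptor tyrosine kinase ERBB2 1164 against 1484, 1049 and 1152, inside the SUM159 range. The epithelial factor GRHL2 was below the limit in all 4 arrays, and the mesenchymal factor ZEB1 read 286 against 373, 348 and 299. The luminal factor GATA3 read 145 against 156, 202 and 190.1. These markers placed both lines on the mesenchymal, hormone-receptor-negative side, but the remaining mesenchymal markers were split. CDH2 (N-cadherin) read 146 in MDA-MB231, near the limit, against 7492, 4679 and 5672 in SUM159. FN1 (fibronectin) read 116, at background, against 206, 181 and 230, and AXL was higher in MDA-MB231. EGFR, the epidermal growth factor receptor, read 1291 against 511, 780.3 and 910.2, but its other probe pointed the other way. The probe for the transfected gene IRX5 read 163, 165 and 151 in SUM159 and 144 in MDA-MB231, so it was not brighter in the array labelled IRX5. These values lay near the limit, and whether the probe reads the construct was not tested.

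The 8 arrays had median intensities of 159.7 to 159.9, which is 1.46 times the mode of the background, and between 10453 and 10780 named genes lay above the limit. Of 16922 named genes, 11914 (70.4%) were compared. MDA-MB231 was higher in 565 of them, which is 4.74%, and lower in 458, which is 3.84%, or 8.59% on either side. These shares are the background for the count of every gene list below. The median fold was 2.55 among the higher genes and 2.66 among the lower ones. At least 4-fold were 120 higher and 120 lower genes, at least 8-fold 41 and 48, and at least 16-fold 10 and 15. In 145 of the higher genes (25.7%) all 3 SUM159 arrays were at or below the limit, and in 160 of the lower genes (34.9%) MDA-MB231 was. Another 3572 genes (30.0%) lay inside the SUM159 range.

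For scale, the SUM159 arrays differed from each other by at least 2-fold in 856 genes, 7.18% of those compared. Pair by pair, 328 genes (2.75%) were 2-fold apart between untransfected SUM159 and LacZ, 624 (5.24%) between untransfected and the array labelled IRX5, and 291 (2.44%) between LacZ and the array labelled IRX5. Against MDA-MB231 the same single-pair numbers were 1534 (12.9%), 1809 (15.2%) and 2170 (18.2%). The 3 SUM159 arrays were thus closer to one another than any of them was to MDA-MB231. A SUM159 range of at least 2-fold was found in 54 of the higher genes (9.56%) and in 110 of the lower genes (24.0%).

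**Figure D1:**
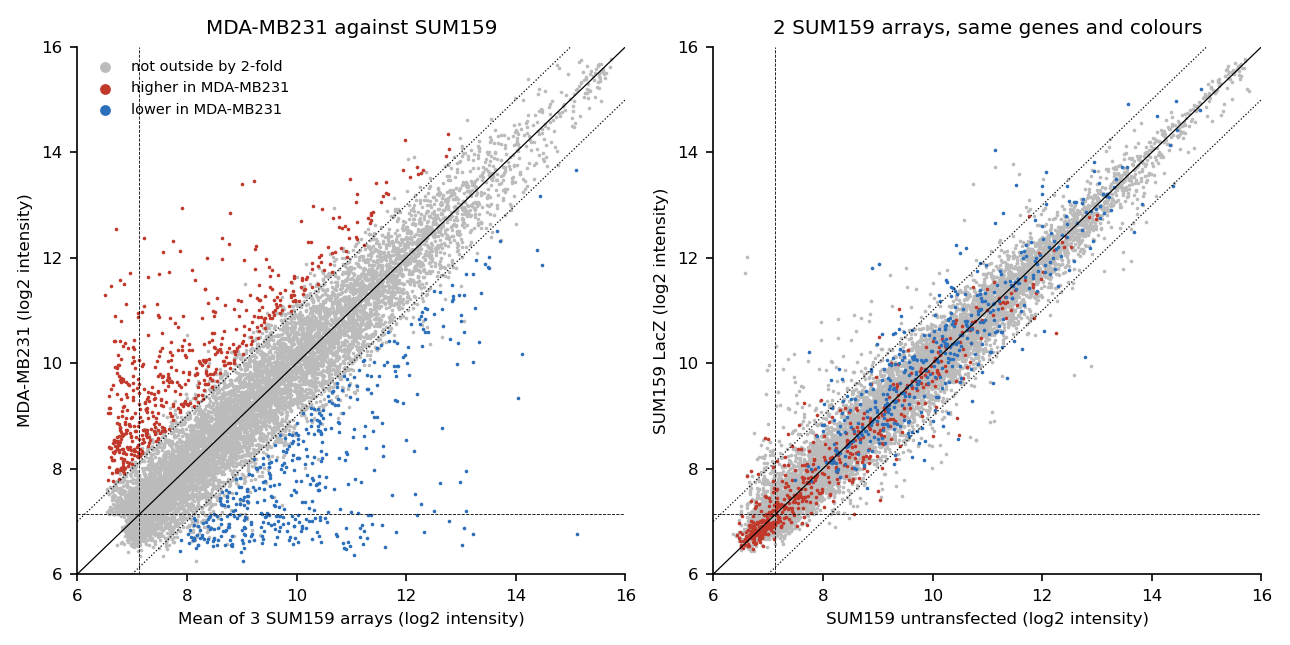
Left, log2 intensity in MDA-MB231 against the mean of the 3 SUM159 arrays for the 11914 genes compared, with the 565 higher genes in red and the 458 lower genes in blue. Right, the same genes and colours in SUM159 LacZ against untransfected SUM159, where 328 genes lay 2-fold apart; solid lines mark equality, dotted lines 2-fold and dashed lines the detection limit.

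The highest fold in favour of MDA-MB231 belonged to EPDR1, a lysosome-associated secreted protein. It read 6017 in MDA-MB231 and 99.8, 114 and 102 in SUM159, at least 42.9-fold higher, with every SUM159 array at background. COXFA4L3, a mitochondrial protein related to a subunit of cytochrome oxidase, read 3368 against 115, 129 and 128 (at least 24.0-fold). SHISA2, a membrane protein that holds back WNT and FGF receptors in the frog, read 3065 against 115, 103 and 112 (at least 21.9-fold). All 3 genes were at background in every SUM159 array.

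Others of the 15 highest follow. PAPSS2, which makes the activated sulfate used on glycosaminoglycans, read 2904 against 136, 112 and 102 (at least 20.7-fold). PLIN2, the coat protein of lipid droplets, read 2831 against 93.7, 98.9 and 102 (at least 20.2-fold). GPX3, a secreted glutathione peroxidase, read 1901 against 108, 95.2 and 105 (at least 13.6-fold). These SUM159 values were all at background. PXDN, an extracellular peroxidase that crosslinks collagen IV, read 2244 against 118, 119 and 119 (at least 16.01-fold). RPL39L, a copy of a ribosomal protein gene best known from testis, read 4473 against 216, 322 and 188 (13.9-fold), and CPVL, a carboxypeptidase-like protein, 1975 against 147, 135 and 133 (13.5-fold).

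The rest of the 15 were signalling, membrane and transcription genes beside the proteases described next. ADORA2B, an adenosine receptor coupled to cyclic AMP, read 7339 against 358, 542 and 446 (13.5-fold), above the limit in all 4 arrays. NFE2L3, a transcription factor of the NRF family, read 5122 against 345, 232 and 125 (14.9-fold), and was lowest in the array labelled IRX5. DYSF, the dysferlin gene of membrane repair, read 3178 against 142, 161 and 171 (18.6-fold), and MAPK13, a p38 kinase, 2022 against 146, 135 and 155 (13.1-fold).

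Proteases that cut the extracellular matrix were among the genes furthest apart. PLAU, the urokinase that turns plasminogen into plasmin, read 7841 in MDA-MB231 and 369.5, 259 and 146 in SUM159, 21.2-fold higher. SUM159 held little PLAU signal on all 3 arrays, and least on the array labelled IRX5. MMP9, a gelatinase, read 2526 against 93.2, 90.5 and 89.5 (at least 18.0-fold), and the interstitial collagenase MMP1 1394 against 128, 126 and 138 (at least 9.95-fold), both at background in SUM159. ADAM19, a membrane-bound sheddase, read 1534 against 379, 141 and 122 (4.04-fold). Of 32 compared genes of the urokinase system, matrix proteases and inhibitors, 8 were higher and 2 lower, beside 4.74% and 3.84% of all genes. The median log2 difference from the SUM159 mean was 0.46, beside -0.00038 over all genes compared. The 2 lower ones were SPOCK1, a proteoglycan that inhibits proteases, at 111 against 1272, 1076 and 1711 (at least 7.68-fold), and SERPINB5 (maspin), at 126 against 1037, 479.7 and 606 (at least 3.42-fold).

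Secreted signals leaned the same way in number, although the median over the list lay near 0. Among 36 cytokine, chemokine and NF-kB genes 6 were higher and 2 lower, beside 4.74% and 3.84% of all genes compared. Their median was -0.02. IL1B, the interleukin-1 beta gene, read 2239 against 198, 224 and 123 (10.01-fold). The neutrophil chemokine CXCL1 read 1011 against 209, 122 and 124 (4.84-fold), the IL-6 family cytokine IL11 827 against 142, 145 and 129 (5.69-fold), and IL7R, the interleukin-7 receptor, 1735 against 370.0, 215 and 137 (4.69-fold). On the other side, IL32 read 686 against 4797, 3531 and 6107 (5.14-fold lower) and the decoy receptor IL13RA2 194 against 793, 1579 and 773 (3.98-fold lower).

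Growth factor signalling showed single large differences on both sides. HBEGF, a ligand of EGFR, read 4939.6 against 513, 506 and 321 (9.63-fold higher). Genes that report ERK activity were split. DUSP6, the phosphatase that switches ERK off, read 918 against 193, 331 and 284 (2.77-fold higher), and FOSL1, an AP-1 subunit, 2450.2 against 1049, 1057 and 791 (2.32-fold higher). The immediate-early factor EGR1 read 168 against 621, 733 and 1095 (3.71-fold lower), and the phosphatase DUSP1 1925 against 9185, 9246 and 6423 (3.34-fold lower). Over 30 genes of this list 4 were higher and 2 lower, with a median of 0.09.

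Of 37 receptor tyrosine kinases and ligands 4 were higher and 2 lower, with a median of 0.04. AXL, the receptor for GAS6, read 8493 against 3776, 2563 and 2692 (2.25-fold higher), and its other probe was also 2-fold apart. EPHA2, an ephrin receptor, read 2152 against 840.4, 718 and 484 (2.56-fold higher). FGF2, a fibroblast growth factor, read 126 against 834, 886 and 1061 (at least 5.95-fold lower), and PDGFRA, a receptor for platelet-derived growth factor, 179.7 against 589.9, 559 and 505 (2.81-fold lower). MDA-MB231 was at background for the first of this pair and just above it for the second.

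Of the insulin-like growth factor system, 15 members were compared, 4 higher and 2 lower, beside 4.74% and 3.84% of all genes compared. Their median was 0.51. IGF2BP3, an RNA-binding protein named for its binding to IGF2 messenger RNA, read 1885 against 207, 168 and 165 (9.12-fold higher). IRS1, the adaptor below the insulin and IGF receptors, read 1224 against 226, 366 and 222 (3.35-fold higher), and the binding protein gene IGFBP4 12444 against 4733, 4537 and 5683 (2.19-fold higher). STC2, a stanniocalcin that blocks the release of IGF from its binding proteins, read 122 against 1792, 3453 and 4373 (at least 12.8-fold lower). IGFBP6, which prefers IGF2, read 861 against 2945, 2720.1 and 2307 (2.68-fold lower).

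In the TGF-beta, BMP and activin pathway genes differed on both sides, and 24 of the 33 compared were on neither. The ligands BMP4 and TGFB2 were higher, at 1191 against 233, 226 and 166 (5.11-fold) and 625 against 151, 159 and 168 (3.71-fold), as was the activin trap FST, at 2038 against 346, 324 and 397 (5.13-fold). ID3, a helix-loop-helix inhibitor induced by BMP, was lower at 1035 against 21556, 10528 and 3825 (3.70-fold), and ID2 at 227 against 2087, 1496 and 617 (2.71-fold). Within SUM159, both ID genes were highest in the untransfected array and lowest in the array labelled IRX5. FSTL3, a follistatin-like gene, read 294 against 2384, 1672 and 1351 (4.59-fold lower), and the matrix protein gene TGFBI, induced by TGF-beta, 13069.7 against 30251, 28536 and 50387 (2.18-fold lower). The list counted 4 higher and 5 lower of 33, with a median of -0.28, and its remaining called members were NUAK1, higher, and LTBP3, lower.

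Among 31 WNT pathway genes 2 were higher and 4 lower, with a median of -0.05. The receptor FZD2 read 3476 against 529, 168 and 229.9 (6.57-fold higher) and the ligand WNT5B 731 against 167, 132 and 147 (4.38-fold higher). DKK3, a secreted member of the Dickkopf family, read 213 against 7820.0, 5079 and 6165 (23.9-fold lower), although not all of its probes lay outside the SUM159 range. NKD2, an inhibitor that binds Dishevelled, read 102 against 524, 3785 and 515 (at least 3.68-fold lower), and was high in SUM159 LacZ alone. In the Notch pathway 2 of 21 were higher and 3 lower, with a median of -0.19. LFNG, a glycosyltransferase that modifies Notch, read 1390.0 against 517, 189.6 and 155 (2.69-fold higher), and HES4, a HES family repressor, 877 against 4476, 4707 and 3611 (4.12-fold lower).

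Genes driven by YAP and SRF, which read cell tension and the actin skeleton, counted 5 higher and 3 lower of 28, with a median of 0.31. F3 (tissue factor) read 3959 against 894, 508 and 325 (4.43-fold higher). ANKRD1, a classical YAP target, read 1861 against 458, 276 and 239.6 (4.06-fold higher), and the ecto-nucleotidase NT5E 3626 against 932, 608 and 677 (3.89-fold higher). The lower ones were contractile genes and a stress gene. TPM2, a tropomyosin, read 644 against 20649, 18024 and 12834 (19.9-fold lower), ACTA2, smooth muscle actin, 283 against 1410.0, 1362 and 1434 (4.81-fold lower), and the growth arrest gene GADD45A 1550.2 against 4285, 12657 and 11204 (2.76-fold lower).

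Interferon-stimulated genes differed on both sides. Of 38 compared, 8 were higher and 3 lower, beside 4.74% and 3.84% of all genes compared, and the median was -0.06. HERC5, the ligase that attaches ISG15, read 1858 against 123, 385 and 188 (4.82-fold higher), MX1, an antiviral GTPase, 1220.2 against 196, 269 and 230.4 (4.53-fold higher), and IFIT1, which binds viral RNA, 1227 against 190.4, 453 and 239.6 (2.71-fold higher). In SUM159 these 3 were highest in LacZ. BST2 (tetherin), which holds virus particles on the membrane, went the other way at 251 against 2548, 2968 and 2709.5 (10.2-fold lower), and IFITM1, a membrane protein against virus entry, read 468 against 2010.1, 3737 and 3704 (4.29-fold lower).

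Antigen presentation genes counted 4 higher and none lower of 21, beside 4.74% and 3.84% of all genes compared. Their median was 0.08. CD74, the invariant chain of MHC class II, read 1943 against 197, 176 and 162 (9.86-fold), and the class II chain HLA-DRA 845 against 119, 106 and 109 (at least 6.03-fold). Signal for HLA-DRA was at background in all 3 SUM159 arrays. TAP2, a subunit of the peptide transporter, read 2075 against 888, 789 and 883 (2.34-fold), and TAPBP, which docks class I molecules on it, 5989 against 2051, 2722 and 1367 (2.20-fold), with another TAPBP probe inside the SUM159 range.

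**Figure D2:**
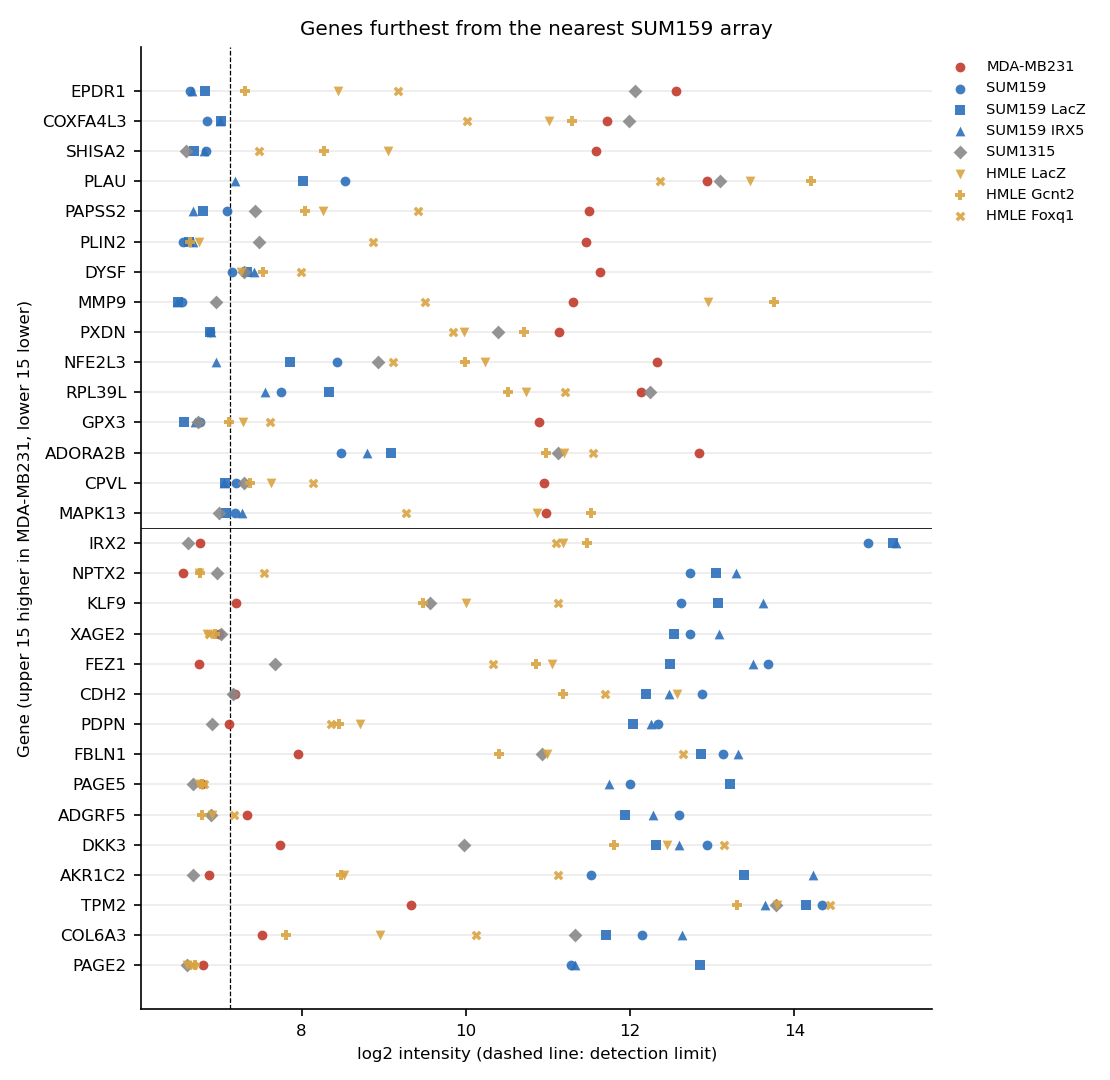
Log2 intensity on all 8 arrays for the 15 genes furthest above and the 15 furthest below the nearest SUM159 array, 1 gene a row and 1 symbol an array, with the detection limit as a dashed line. IRX2 lies near the top of the scale on the 3 SUM159 arrays and at background in MDA-MB231 and SUM1315, and SHISA2, PLIN2 and GPX3 are among the rows in which MDA-MB231 is the brightest of the 8 arrays.

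Among the genes lower in MDA-MB231, IRX2 stood furthest out. IRX2 is an Iroquois homeobox transcription factor that patterns embryonic tissue and is expressed in the mammary epithelium. It read 109 in MDA-MB231, which is background, and 30576, 37799 and 38800.0 in SUM159, at least 218-fold lower. SUM1315 was also at background, with 98.4, and the 3 HMLE arrays read 2320.3, 2842 and 2199.8. Only 5 other lower genes reached a fold of 32. The promoter is shown because IRX2 carries the widest gap between the lines. These are the 250 bases before the start of the gene in RefSeq, GRCh38.p14, chr5:2751678-2751927 on the minus strand, with the GC box GGGCGG in capitals on either strand (CCGCCC where it reads on the other strand):
IRX2: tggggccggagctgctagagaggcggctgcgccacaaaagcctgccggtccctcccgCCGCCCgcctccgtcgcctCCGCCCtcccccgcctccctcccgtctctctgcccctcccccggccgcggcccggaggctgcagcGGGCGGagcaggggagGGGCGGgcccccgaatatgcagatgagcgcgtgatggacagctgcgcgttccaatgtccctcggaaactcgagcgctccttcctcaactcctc
It held 4 GC boxes and 27 CG pairs. A GC box was found in 64.6% of the 9783 compared genes that had a promoter in the RefSeq table.

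Other lineage transcription factors followed in the same direction. Of 39 compared, 2 were higher and 11 lower, beside 4.74% and 3.84% of all genes, and the median was -0.34. FOXD1, a forkhead factor, read 106 against 1358, 2147 and 1725 (at least 9.69-fold lower), and MSX1, a homeobox factor, 101 against 1222, 1311 and 1214 (at least 8.66-fold lower). FOXQ1, the forkhead factor that 1 HMLE array is labelled for, read 196 against 1111, 2518 and 1568 (5.66-fold lower). Its probe read 299 in the array labelled Foxq1 and 1641 in HMLE LacZ, and whether it reads the construct was not tested. MDA-MB231 was at background for the first 2 of these and above it for FOXQ1. The 2 factors that were higher were SOX9, at 1883 against 98.1, 232 and 118 (8.12-fold), and TFAP2C, an AP-2 factor of mammary cells, at 2189.7 against 388, 565 and 324 (3.87-fold).

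HOX genes, which give cells their position along the body axis, counted none higher and 5 lower of 20, beside 4.74% and 3.84% of all genes compared, and all 5 belonged to the HOXC cluster. HOXC6 read 421 against 2795, 2416 and 2865 (5.74-fold), HOXC8 166 against 909, 1042 and 1395 (5.48-fold), HOXC4 119 against 836, 908 and 767 (at least 5.47-fold) and HOXC13 139 against 1058, 553 and 644 (at least 3.95-fold). HOXC9 read 93.7 against 478, 321 and 466 (at least 2.29-fold). HOXC4 and HOXC6 are known to share a promoter and exons, so their probes may report common transcripts, and another HOXC6 probe lay inside the SUM159 range. The median over the list was -0.09.

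Among 30 mesenchymal genes compared, 4 were higher and 8 lower, beside 4.74% and 3.84% of all genes compared, 9 had a positive difference, and the median was -0.54. CDH2, N-cadherin, the adhesion molecule that usually replaces E-cadherin, read 146 in MDA-MB231 and 7492, 4679 and 5672 in SUM159 (32.0-fold lower). CDH11, another cadherin gene of mesenchyme, read 1023 against 126, 124 and 135 (at least 7.30-fold higher). SPARC, a matricellular protein, read 134 against 2631, 845 and 992 (at least 6.03-fold lower). FN1 (fibronectin) was dim throughout, at 116 against 206, 181 and 229.9, and is not counted on either side.

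Adhesion genes in general counted 3 higher and 5 lower of 32 with a median of 0.01, which became -0.04 with dim values at the limit. CADM1, a synaptic and epithelial adhesion molecule, read 97.8 against 1212, 1704 and 1308 (at least 8.65-fold lower). CD44, the hyaluronan receptor, read 17092 against 8245, 7184 and 5989 (2.07-fold higher), just past the threshold. Its other probes also put MDA-MB231 above the SUM159 range, but not all by 2-fold. ALCAM, an activated leukocyte cell adhesion molecule, read 3533 against 1435, 401 and 381 (2.46-fold higher). Of 24 integrin and focal adhesion genes 2 were higher and 2 lower, among them ITGB2, the leukocyte beta 2 chain, at 800.3 against 214, 212 and 188 (3.74-fold higher) and PARVB, a parvin of the focal adhesion, at 98.0 against 1093, 1037 and 1016 (at least 7.25-fold lower).

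Single matrix genes lay far apart between the lines, on both sides, although most of those compared did not differ by 2-fold. Proteoglycans and matricellular proteins counted 3 higher and 8 lower of 30, beside 4.74% and 3.84% of all genes compared. Their median of 0.01 became -0.02 with dim values at the limit. FBLN1, a fibulin of elastic fibres and basement membranes, read 249 against 8945, 7429 and 10156 (29.8-fold lower). DCN (decorin), which coats collagen fibrils, read 144 against 1319, 2748 and 3029 (9.19-fold lower), and its other probe was 2-fold apart too. MGP, the matrix Gla protein, read 150.5 against 1455, 4345 and 879 (5.84-fold lower). THBS2, a thrombospondin, was on the other side, at 637 against 119, 104 and 109.8 (at least 4.54-fold higher).

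Collagens and their processing enzymes counted 5 higher and 5 lower of 32, beside 4.74% and 3.84% of all genes compared, with a median of 0.23. COL6A3, a chain of collagen VI, read 184 against 4513, 3330.2 and 6369 (18.1-fold lower), with its other probes 2-fold lower as well, while COL6A1, a second chain of the same collagen, read 1327 against 412, 378 and 204 (3.22-fold higher). COL13A1, a transmembrane collagen, read 3301 against 278, 181 and 114 (11.9-fold higher). The basement membrane chain COL4A1 read 2356 against 1033, 394 and 662 (2.28-fold higher) and its relative COL4A6 124 against 969, 793 and 839 (at least 5.66-fold lower), with another COL4A6 probe inside the SUM159 range. PCOLCE, which speeds the cleavage of procollagen, read 145 against 1241, 1836 and 1569 (8.58-fold lower). Members of one collagen family thus lay on both sides.

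Further genes among the 15 lowest were membrane and neural genes. NPTX2, a neuronal pentraxin of synapses, read 93.7 against 6803, 8453 and 9982 (at least 48.5-fold lower). FEZ1, an adaptor of kinesin transport in neurons, read 108 against 13126, 5725 and 11513 (at least 40.9-fold lower). PDPN (podoplanin), a mucin-like protein of lymphatic vessels and myoepithelium, read 139 against 5189, 4183 and 4876 (at least 29.8-fold lower). MDA-MB231 was at background for all 3. ADGRF5, an adhesion receptor coupled to G proteins, read 162 against 6165, 3918 and 4959 (24.2-fold lower), just above background in MDA-MB231. KLF9, a zinc finger factor induced by glucocorticoids, read 147 against 6278, 8579.6 and 12525 (42.6-fold lower).

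Cancer-testis antigens, which are normally silent outside the germline and are reactivated in many tumours, gave 12 lower genes of 26, against 3.84% of all genes compared. That was the highest share among the 38 lists, and a list of glucocorticoid-responsive genes gathered after values were seen, described at the end, had a higher one. A single member was higher and the median was -1.42, or -1.08 with dim values at the limit. The list also holds the X-linked genes BEX1 and BEX2, which are better known from the brain, and these 2 went opposite ways. BEX2 read 552 against 117, 146 and 212 (2.60-fold higher) and BEX1 82.2 against 7053, 1117 and 1199 (at least 7.97-fold lower). XAGE2 read 128 in MDA-MB231 against 6797, 5918 and 8689 in SUM159 (at least 42.2-fold lower). PAGE5 read 111 against 4110.1, 9479.7 and 3434 (at least 24.5-fold lower), and PAGE2 112 against 2495, 7416 and 2574 (at least 17.8-fold lower). Both PAGE genes were brightest in SUM159 LacZ, and at background in MDA-MB231. Of the 12 lower members, 7 were also at or below the limit in SUM1315 and in all 3 HMLE arrays. The same share over all 458 lower genes is not given, so this count has no background to be set against. Members at background in MDA-MB231 entered the comparison only through their SUM159 signal. Genes of the PAGE, XAGE, MAGE, GAGE and SPANX families have near-identical copies on the X chromosome, so a probe may read more than the copy it is named for.

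The PAGE promoters are shown because PAGE2 and PAGE5 were both bright in SUM159 and at background in MDA-MB231. Each is the 250 bases before the RefSeq start on the plus strand of GRCh38.p14, at chrX:55088768-55089017 for PAGE2, chrX:55074780-55075029 for its close copy PAGE2B and chrX:55220096-55220345 for PAGE5. Capitals mark the longest run of letters, 20 long, that all 3 hold:
PAGE2: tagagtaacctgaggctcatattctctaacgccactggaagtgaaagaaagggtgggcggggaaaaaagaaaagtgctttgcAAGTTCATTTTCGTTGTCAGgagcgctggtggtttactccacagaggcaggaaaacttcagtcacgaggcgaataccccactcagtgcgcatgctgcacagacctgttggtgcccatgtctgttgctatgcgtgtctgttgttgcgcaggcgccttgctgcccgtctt
PAGE2B: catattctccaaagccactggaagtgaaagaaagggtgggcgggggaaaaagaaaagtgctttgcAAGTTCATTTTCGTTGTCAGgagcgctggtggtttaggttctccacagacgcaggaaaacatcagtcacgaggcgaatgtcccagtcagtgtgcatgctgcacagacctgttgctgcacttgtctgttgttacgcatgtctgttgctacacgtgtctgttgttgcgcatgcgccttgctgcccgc
PAGE5: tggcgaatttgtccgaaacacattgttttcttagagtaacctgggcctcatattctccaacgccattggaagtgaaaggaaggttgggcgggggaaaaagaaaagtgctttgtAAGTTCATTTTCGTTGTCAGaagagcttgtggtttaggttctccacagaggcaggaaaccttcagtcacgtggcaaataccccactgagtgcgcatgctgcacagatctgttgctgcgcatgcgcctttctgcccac
Aligned end to end, PAGE2 and PAGE2B were identical at 215 of 270 aligned columns (79.6%), PAGE2 and PAGE5 at 68.4%, and PAGE2B and PAGE5 at 60.7%. The shared run is a description of these letters and names no factor.

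**Figure D3:**
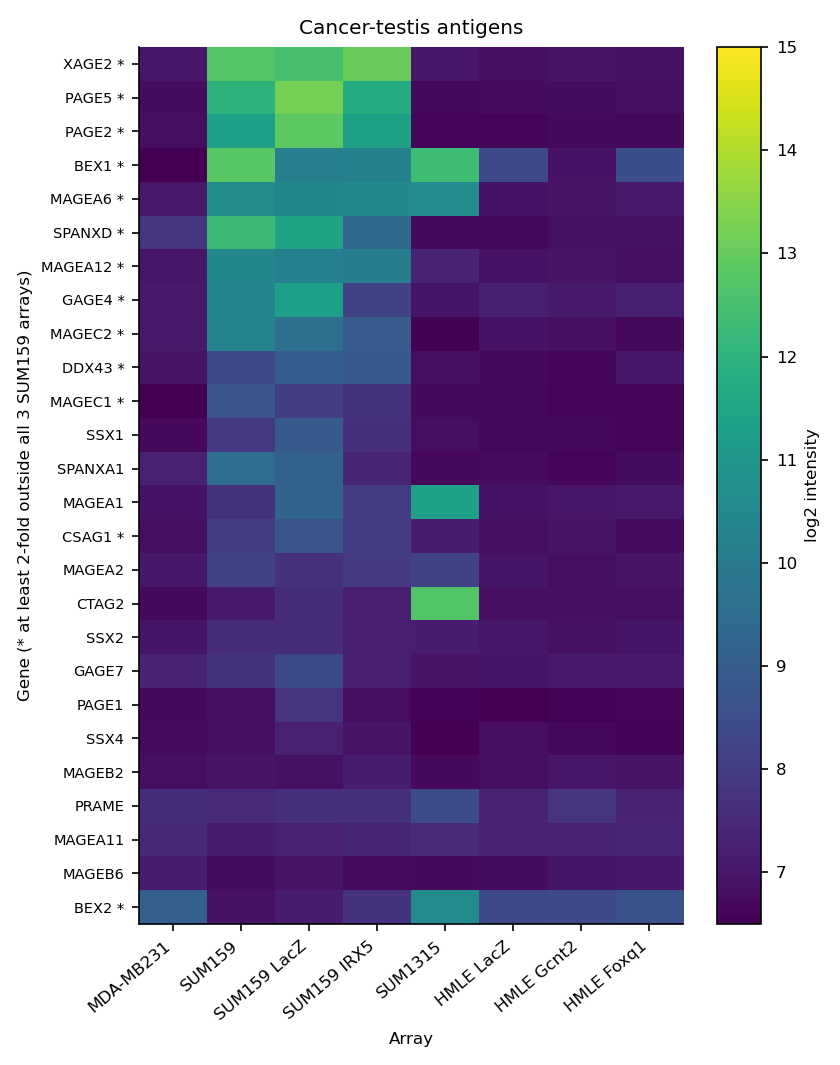
Log2 intensity of the 26 compared cancer-testis antigen genes (rows) on all 8 arrays (columns), ordered by the difference between MDA-MB231 and the SUM159 mean. An asterisk marks the 12 genes at least 2-fold lower and the 1 gene at least 2-fold higher in MDA-MB231, and XAGE2, PAGE5 and PAGE2 are bright on the SUM159 arrays only.

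Imprinted and placental genes counted 1 higher and 3 lower of 14, with a median of -0.46. SNRPN, a paternally expressed splicing gene, read 117 against 1869, 1772 and 2125 (at least 12.6-fold lower). SNURF, which shares its transcript, read 104 against 2240.3, 2258 and 2347 (at least 15.99-fold lower), so the 2 are not separate evidence. PSG4, a pregnancy glycoprotein, read 135 against 543, 1505 and 391 (at least 2.79-fold lower), and the CDK inhibitor CDKN1C 298 against 134, 139 and 144 (2.07-fold higher).

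Of 37 genes of serine, glycine and amino acid stress metabolism none was higher and 6 were lower, beside 4.74% and 3.84% of all genes compared, 8 had a positive difference, and the median was -0.60. CBS, which starts the route from homocysteine to cysteine, read 139 against 1356, 2664 and 5069 (at least 9.68-fold). ASS1, an enzyme of arginine synthesis, read 373 against 1567, 4635 and 9563 (4.20-fold), and PHGDH, the first enzyme of serine synthesis, 2122 against 5628, 10551 and 15783 (2.65-fold). Within SUM159 each of these 3 was lowest in the untransfected array and highest in the array labelled IRX5. SLC1A3, a glutamate transporter, was even there, at 236 against 1211, 1282 and 1047 (4.45-fold). Summed over the list, intensity was 74606 in MDA-MB231 and between 87808 and 202165 in SUM159.

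Detoxification genes counted 4 higher and 6 lower of 39, with a median of -0.20. AKR1C2, an aldo-keto reductase that acts on steroids, read 118 against 2952, 10680.4 and 19256 (at least 21.1-fold lower) and AKR1C3 1336 against 4070.2, 10483 and 11329 (3.05-fold lower). These AKR1C genes are close copies, so a probe may read more than one of them, and both were lowest within SUM159 in the untransfected array. MT1X, a metallothionein, read 3740.3 against 22223, 32204 and 16941 (4.53-fold lower). GSTT1, a glutathione transferase, read 89.7 against 508, 543 and 539 (at least 3.62-fold lower). On the other side, GSTM3, an enzyme of the same kind, read 667 against 100.4, 92.6 and 95.6 (at least 4.76-fold higher), and CYP1B1, a cytochrome P450, 855 against 136, 217 and 218 (3.91-fold higher).

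Basal and luminal mammary genes were mixed, with 2 higher and 2 lower of 15 in each list and medians of 0.22 and -0.06. LAMB3, a chain of laminin-332, read 2425 against 609, 1030.1 and 376 (2.35-fold higher). MME (CD10), a peptidase of myoepithelium, read 94.4 against 1218, 3069 and 3575 (at least 8.69-fold lower), and the keratin gene KRT7 1359 against 14523, 8318 and 8917 (6.12-fold lower). The luminal keratin KRT19 read 342 against 106, 88.6 and 93.7 (at least 2.44-fold higher), while the carbonic anhydrase CA12 read 605 against 5754, 3478 and 3008 (4.97-fold lower). Epithelial junction genes counted 2 higher and none lower of 17, with a median of 0.16 that became 0.00027 with dim values at the limit. SPINT2, an inhibitor of membrane serine proteases, read 958 against 129, 145 and 126 (6.61-fold higher), and the tight junction gene CGN 329 against 103, 121 and 103 (at least 2.35-fold higher).

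Glycosyltransferases counted 6 higher and 3 lower of 36, beside 4.74% and 3.84% of all genes compared. Their median was 0.45, or 0.38 with dim values at the limit. FUT4, a fucosyltransferase of Lewis antigens, read 601 against 151, 121 and 149 (3.99-fold higher). Sialyltransferases lay on both sides, with ST3GAL4 at 817 against 247, 186 and 173 (3.32-fold higher) and ST3GAL6 at 296 against 920.0, 1483 and 840.4 (2.83-fold lower). HS3ST3A1, a heparan sulfate sulfotransferase, read 131 against 1090.1, 1065 and 867 (at least 6.19-fold lower). GCNT2, the branching enzyme that 1 HMLE array is labelled for, read 809 against 621, 388 and 496, a fold of 1.30. The same probe was below the limit in HMLE Gcnt2 (129) and HMLE LacZ (123), and whether it reads the construct was not tested.

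Smaller families gave single genes. S100 proteins and annexins counted 3 higher and 2 lower of 21 (median 0.10), with ANXA3 at 768 against 236, 235 and 222 (3.25-fold higher) and S100P at 99.7 against 283, 819.7 and 3521 (at least 2.02-fold lower). Within SUM159, S100P itself spread over more than 2-fold. Axon guidance genes counted 4 higher and 2 lower of 25 (median 0.04), with the semaphorin SEMA4B at 1259.5 against 379, 407 and 319.5 (3.10-fold higher) and the netrin NTN4 at 140.2 against 556, 523 and 1010.5 (3.73-fold lower).

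None of 23 ER chaperones and unfolded protein response genes lay outside by 2-fold (median -0.01), and 1 of 28 cholesterol and lipid genes was higher (median 0.19). Glycolysis and hypoxia genes counted 3 higher and 2 lower of 39 (median -0.10), with the vasodilator peptide gene ADM at 6131 against 2241, 2992 and 790.2 (2.05-fold higher) and DDIT4, a brake on mTOR, at 4563 against 12143, 30909 and 26133 (2.66-fold lower). Of 43 ribosomal protein genes 1 was lower (median -0.13), RPL13 at 1263 against 3878, 3467 and 5530.4, and other RPL13 probes lay inside the SUM159 range. CDK inhibitors and p53 targets counted 2 higher and 2 lower of 26 (median -0.08). CDKN2A, the INK4A and ARF gene, and its neighbour in the genome MTAP were below the limit in all 4 arrays on their brightest probes, at 128 against 118, 126 and 111 and 101 against 120.0, 96.9 and 114. Both were between 874 and 1789 in HMLE. A second CDKN2A probe was above the limit in at least 1 of the 4 arrays and put MDA-MB231 outside the SUM159 range.

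Cell cycle genes differed by small amounts that mostly pointed one way. Of 49 compared, 42 had a positive difference, 3 were at least 2-fold higher and none lower, and the median was 0.45. AURKB, a mitotic kinase of the centromere, read 5054 against 1892, 1423 and 625 (2.67-fold), its relative AURKA 11092 against 4117, 3419.7 and 2245 (2.69-fold), and UBE2C, the enzyme that feeds the anaphase-promoting complex, 20974 against 8050.5, 6823 and 6017 (2.61-fold). All 3 were highest within SUM159 in the untransfected array and lowest in the array labelled IRX5. Summed intensity over the list was 214658 in MDA-MB231 and between 107692 and 192855 in SUM159.

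Markers of other cell types were read for the same arrays. Of the defining leukocyte genes, PTPRC (CD45) and CD3E were below the limit in all 4 arrays, while CD14 read 222 against 179, 426 and 1072 and LAPTM5 1097 against 323, 528 and 1682, inside the SUM159 range. CD79A read 154, just above the limit, against 127, 138 and 139. The leukocyte list counted 1 higher of 9 compared, CD8A at 314 against 119, 103 and 119.7 (at least 2.24-fold), and its summed intensity was 4165 in MDA-MB231 and between 2845 and 5036 in SUM159. Of the endothelial list 3 of 7 compared were higher, and summed intensity was 6967 against 2154 to 2243. These were ESAM, an endothelial junction molecule, at 1343 against 115, 108 and 132 (at least 9.58-fold), ENG (endoglin), a co-receptor for TGF-beta, at 4028 against 727, 698 and 671 (5.54-fold), and ROBO4 at 333 against 125, 120.0 and 122 (at least 2.37-fold). The defining endothelial genes VWF, CDH5 and CLDN5 were below the limit in all 4 arrays, and PECAM1 read 196 against 237, 282 and 221. TIE1, the remaining one, was higher at 232 against 128, 166 and 162, a fold of 1.40. The melanocyte genes PMEL, MLANA, TYR and SOX10 were below the limit in all 4 arrays. Of 6 melanocytic and neural genes none lay outside by 2-fold (median -0.09), and of 6 adipocyte genes 1 was lower, CIDEC at 107 against 364, 644 and 655 (at least 2.60-fold).

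**Figure D4:**
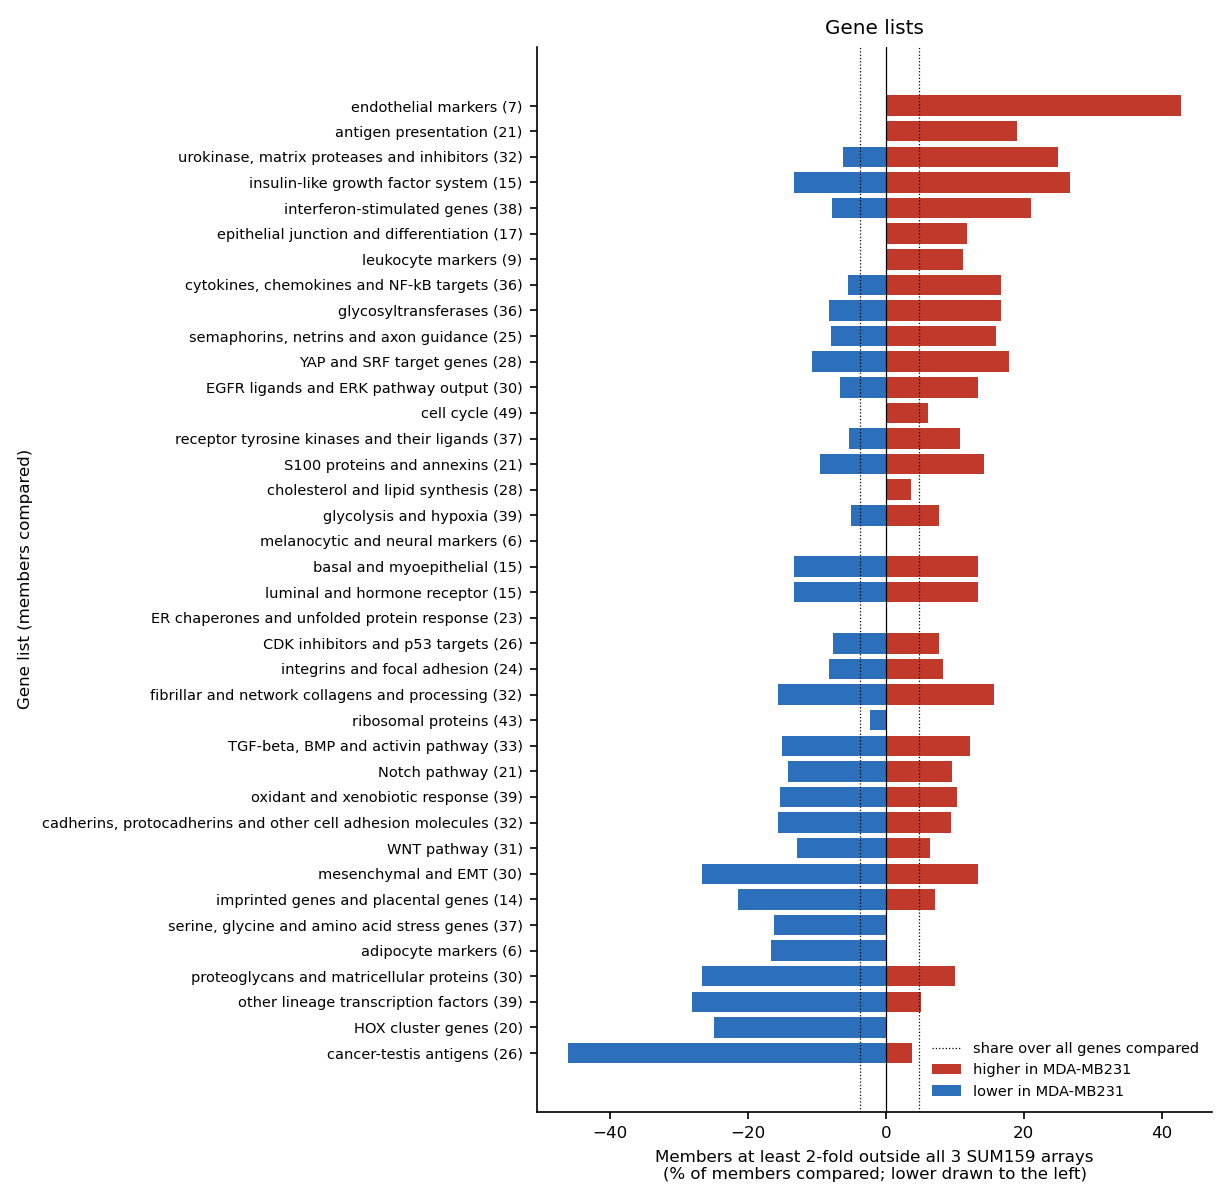
Share of each list's compared members that lay at least 2-fold above (red, to the right) or below (blue, to the left) all 3 SUM159 arrays, in percent, with the number compared in brackets and lists ordered by the share higher minus the share lower. Dotted lines mark 4.74% and 3.84%, the shares over all 11914 genes; cancer-testis antigens reach furthest to the left, and the endothelial list, with 7 members, furthest to the right.

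Measures that the rule had not used were read next. Another detected probe existed for 105 higher and 87 lower genes. Every other probe was also 2-fold apart in 32 and 25 of these. In 61 and 52 all lay outside the SUM159 range on the same side, but not all by 2-fold. Some probe lay inside the SUM159 range in 4 and 6, and a probe pointed the other way in 8 and 4. At the threshold, the 3 higher genes just inside were LYL1 (2.00-fold as measured), TNFRSF14 (2.00) and PDGFD (2.01), and the 3 just outside were ACBD7, GSTM2 and HUWE1 (2.00 each after rounding). The lower genes just inside were CDKAL1 (2.00), FCSK (2.01) and RPP25L (2.01), and those just outside WDR33 (2.00), SARNP (1.99) and COL1A1 (1.99). Those genes were picked by the same fold that the rule uses, so they are alike in fold by construction.

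The 4 arrays of other lines were used to place the genes that differed. All 4 lay nearer MDA-MB231 for 71 higher and 115 lower genes, all 4 lay nearer SUM159 for 170 and 64, and for the rest they were split. Of the higher genes, 186 (32.9%) were nearer MDA-MB231 than the SUM159 mean in SUM1315, 228 (40.4%) in HMLE LacZ, 217 (38.4%) in HMLE Gcnt2 and 281 (49.7%) in the HMLE array labelled Foxq1. Of the lower genes the shares were 57.6%, 60.7%, 62.0% and 41.9%. The other lines lay more often with the dimmer side in SUM1315, HMLE LacZ and HMLE Gcnt2. In the array labelled Foxq1 a smaller share of the lower genes did so. Part of this lean is set by how the genes were selected. The dimmer side was at or below the limit in 145 higher and 160 lower genes, and an array without signal there falls with it. No share over genes that did not differ is given beside these. MDA-MB231 stood at least 2-fold above all 7 other arrays in 128 of the higher genes (22.7%) and below all 7 in 70 of the lower ones (15.3%). SHISA2, PLIN2, DYSF, GPX3, COL13A1 and MMP1 were among the former, and FBLN1, TPM2, STC2 and all 5 lower HOXC genes among the latter. The 3 SUM159 arrays stood apart from all 5 others in 42 of the higher genes (7.43%), with PLAU, COXFA4L3, PXDN and SOX9 among them, and in 76 of the lower ones (16.6%), with IRX2, NPTX2, XAGE2, PDPN and BST2 among them. ADORA2B and KLF9 were among the genes that met both conditions, in which the remaining lines fell between MDA-MB231 and SUM159. GPX3, for which MDA-MB231 stood alone, read 107 in SUM1315 and 157 in HMLE LacZ. PLAU, for which SUM159 stood alone, read 8748 and 11243 there.

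**Figure D5:**
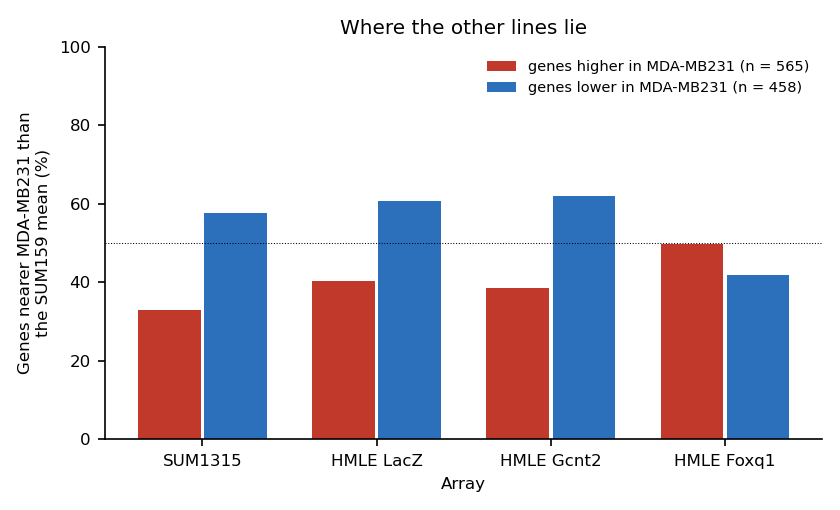
Share of the 565 higher (red) and 458 lower (blue) genes, in percent, for which each of the other 4 arrays lay nearer MDA-MB231 than the mean of the SUM159 arrays on the log2 scale. The lower genes exceed the dotted line at equal shares in SUM1315, HMLE LacZ and HMLE Gcnt2, and the higher genes lie below it in all 4.

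Position in the genome was read from the RefSeq order of the 11907 compared genes that it places. There were 8 runs of at least 3 neighbours on the same side, 5 higher and 3 lower. The lower runs were HOXC9, HOXC8, HOXC4 and HOXC6, then SPANXD, MAGEC1 and MAGEC2 on the X chromosome, then HBG2, HBE1 and OR51B4. SPANXD read 222 against 4988, 2832 and 695 (3.13-fold), MAGEC2 137 against 1268, 802 and 486 (at least 3.47-fold) and MAGEC1 90.7 against 429, 264 and 212 (at least 1.52-fold), all brightest in untransfected SUM159. Among the higher runs, MMP9 was followed by NCOA5, a nuclear receptor coactivator, at 1596 against 597, 489 and 608 (2.63-fold) and by CD40, a TNF receptor family member, at 1276 against 144, 127 and 120.0 (8.84-fold). ADORA2B lay between MEIS3P1 (2.30-fold) and TTC19 (2.18-fold). IL2RB, an interleukin receptor chain, read 777 against 131, 140.4 and 147 (5.27-fold), and its neighbours C1QTNF6 and RAC2 were 2.70-fold and 2.34-fold higher. EED, a Polycomb subunit (2.28-fold), ME3 (at least 6.89-fold, with other probes pointing the other way) and PRSS23, a serine protease at 3073 against 302, 260.3 and 285 (10.2-fold), formed another, and PAK6 (at least 1.82-fold), CCDC9B (2.65-fold) and DISP2 (2.59-fold) the last.

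Promoter letters were compared for the genes that RefSeq gives a start for, 9783 of those compared, 453 of the higher and 354 of the lower. A promoter counted as CpG-rich at a GC content above 50% and an observed over expected CG ratio above 0.6 in its 250 bases. This held for 72.8% of all genes compared, 70.9% of the higher and 64.7% of the lower. Among higher genes with SUM159 at background it was 73 of 114 (64.0%), and among lower genes with MDA-MB231 at background 63 of 124 (50.8%). For the lower cancer-testis antigens it was 5 of 11. The TATA box TATAAA on either strand was found in 6.15% of all, and in 7.06% of the higher and of the lower genes. The AP-1 site TGANTCA was found in 4.14% of all, 4.42% of the higher and 4.24% of the lower, and an NF-kB site in 1.51%, 2.65% and 1.69%. No test was made of the differences between these shares.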

How the data were processed

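RNA of 8 cultures was hybridised to 8 Illumina HumanRef-8 v3 arrays, 1 per group as the labels name them. The deposited table holds 1 intensity per probe and array on a linear scale from 73.3 to 56056.2. Once ranked, the authors' intensities varied from array to array by 1.27% or less (coefficient of variation), the mark of quantile normalization. The submitters' processing notes name GenomeStudio, lumi 1.14 and R 2.11.1 without a role. The sources used here do not say whether background was subtracted. A table of unnormalized values was not used: no label ties its 16 columns to a sample.

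The platform annotation gives 1 symbol to 21834 of 24526 probes and leaves 2692 unnamed, with several symbols for none. Symbols of 21813 were updated through RefSeq (GRCh38.p14), 21 kept the array's name, and they stand for 16922 genes. Each gene was read from whichever of its named probes had the highest 8-array mean. The detection limit mirrors the dim side of the background peak, whose mode was 109, and lay at 140 for a tail of 0.01 and at 131 for 0.05. Log2 of the deposited intensities was compared without further correction, so folds near background understate differences of corrected signal. Alternatives used limma 3.58.1 in R 4.3.3, and other steps Python 3.11.15, numpy 2.4.6, pandas 2.3.3 and matplotlib 3.10.9. The rule was tested on simulated data.

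Genes named are the 15 furthest above and the 15 furthest below the nearest SUM159 array whose other probes do not point the other way, up to 4 called members per direction of each of 38 lists, cell type markers, fixed identity genes, the 3 genes on each side of the threshold and members of neighbour runs; SNURF, HBG1, MTAP, CDKN2A, NR3C1, FKBP5 and the list of 22 glucocorticoid-responsive genes were added after values were seen. The members and lists were chosen with earlier results of these data known, and some genes belong to more than 1 list. Medians of lists are of the log2 difference between MDA-MB231 and the mean of the 3 SUM159 arrays.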

Additional observations from a re-analysis of the deposited data

How the results depend on the processing

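Against 565 higher and 458 lower genes, normexp background correction with an offset of 50 gave 666 and 524, among them all 565 and 458, and cyclic loess gave 564 and 456. The mean of probes gave 499 and 399, the probe chosen over the 4 arrays 564 and 462, the detected probe nearest to 0 494 and 396, and log2(intensity + 50) 459 and 376. A detection limit at a tail of 0.05 and no filter on dim genes both left 565 and 458. A filter at an intensity of 500 gave 415 and 403. A 3-fold threshold gave 224 and 196, fewer by its construction. Leaving out 1 SUM159 array gave 613 to 772 higher and 522 to 666 lower genes. The 856 genes with a 2-fold SUM159 range became 291 without the untransfected array, 624 without LacZ and 328 without the array labelled IRX5. Of alternatives chosen after seeing the data, asking every detected probe for 2-fold gave 492 and 396, and raising dim values to the limit 543 and 425. Leaving out a SUM159 array, the looser tail and no filter keep a called gene by construction. Under the other settings, run on 228 called genes (196 above 500), none reversed. A 3-fold threshold, the filter at 500 and log2(intensity + 50) cannot reverse a call, and normexp rescales the same intensities. A reversal was possible mainly with cyclic loess and the settings that changed the probe. The call was lost in 89 genes at 3-fold, 31 with the probe nearest to 0, 29 with the mean of probes, 25 with log2(intensity + 50), 2 with cyclic loess, 1 with the probe chosen over the 4 arrays and none with normexp. Of 988 counts over 38 lists, 888 stayed within 1.5 times and 100 did not. No paired analysis was possible because each group has 1 array and the labels give no replicate numbers. Signal over background limits these values: the median intensity was 1.46 times the background mode and 70.4% of named genes had an array above the limit.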

Other observations

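Genes that respond to glucocorticoids were gathered as a list of 22 after their values had been seen, so the count describes how they were picked as well as what they show. Of 21 compared none was higher and 12 were lower in MDA-MB231, beside 4.74% and 3.84% of all genes compared, and the median log2 difference was -1.62. KLF9, a zinc finger factor, was described above. TSC22D3 (GILZ), a leucine zipper protein that mediates glucocorticoid action, read 216 in MDA-MB231 and 2271, 16817 and 13684 in untransfected SUM159, LacZ and the array labelled IRX5. FKBP5, the co-chaperone that dampens the receptor, read 1013 against 7582, 7629 and 8044, and the zinc finger factor ZBTB16 88.8 against 1592, 1668 and 2612. MAOA, a monoamine oxidase, read 324 against 3561, 5035 and 5166. The other way, 2 of the 21 had a positive difference. SGK1 read 1684 against 1175, 617 and 469, 1.43-fold higher and short of the threshold. CRISPLD2 read 1093 against 1324, 661 and 142, inside the SUM159 range. NR3C1, the glucocorticoid receptor gene, read 284 against 271, 382 and 384, inside the SUM159 range. Its other detected probe put MDA-MB231 below the SUM159 range, by less than 2-fold. A palindromic glucocorticoid receptor site, looked for on either strand of the 250 bases before the start, matched none of the 354 lower genes with a promoter and 26 of all 9783, which says only that these letters are not in those windows.

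Globin genes formed one of the runs of neighbours. HBE1, the embryonic epsilon chain, read 97.5 in MDA-MB231 and 1402, 2559 and 2129.6 in SUM159, at least 10.01-fold lower, and was at background in SUM1315 (94.2) and in all 3 HMLE arrays. HBG2, a fetal gamma chain, read 102 against 316, 448 and 329, and its near-identical copy HBG1 170.4 against 289, 393 and 347, 1.69-fold lower and short of the threshold. The adjoining olfactory receptor gene OR51B4 was dim, at 120.4 against 304, 247 and 337.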
